A study of Mus musculus with 10 samples.

Results

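SoxF, ETS and other endothelial transcription factors were examined in cultures of primary mouse adipocytes from control mice and from mice with an adipocyte knockout (KO) of Fam20c, the gene of a secreted serine/threonine kinase. The set was chosen by name, with earlier results of these data known. It holds Sox7, Sox17, Sox18, Erg, Fli1, Ets1, Tal1, Lyl1, Gata2 and Mecom, which are 10 of the 56748 genes in the deposited count table. Each symbol matched 1 row. RNA-seq covered 5 control cultures (Fam20c-flox) and 5 Ad-Fam20c–KO cultures (Fam20c-flox/Adipoq-Cre), so both groups carry the floxed allele and only the KO group carries Cre. The cells were stromal vascular fractions of inguinal fat, which the methods of the study describe as coming from 6- to 8-week-old males and kept in differentiation for 6 to 8 days, at first with isobutylmethylxanthine, dexamethasone, insulin and rosiglitazone, then with insulin and rosiglitazone, and last with insulin alone. Adipoq-Cre is driven by the adiponectin promoter, which is active in differentiated adipocytes, and a stromal vascular culture can also hold endothelial, blood-derived, mural and progenitor cells. The labels do not say whether each library came from its own mouse, so the tests measure the spread between these cultures.

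The members belong to 4 classes of factors that build and keep the endothelial gene program. The zinc finger class joins Gata2 and Mecom, which are of different families (GATA and PRDM). The SoxF factors Sox7, Sox17 and Sox18 bind DNA through an HMG box and act in arterial, venous and lymphatic vessel formation. Erg, Fli1 and Ets1 bind GGAA cores through an ETS domain, and Erg in particular maintains junction genes such as Cdh5 and Cldn5 in mature endothelium. Tal1 and Lyl1 are related bHLH factors that bind DNA with E proteins and join a complex with Lmo2, Ldb1 and GATA factors in blood and endothelial cells. Gata2 and Mecom (also called Evi1) are zinc finger factors of blood stem cells and endothelium, and Gata2 is also known from preadipocytes, where it holds back adipogenesis.

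Coding sequence of the ETS members is shown because paralogs can exchange reads in a count table. The stretches were read from GENCODE M21 transcripts on GRCm38, and each is a run of 90 bases without gaps, written 5′ to 3′ on the coding strand. Capitals mark bases that are identical in all 3 genes. The ETS stretch is in the part that encodes the DNA-binding ETS domain, and 68 of its 90 bases are identical in all 3 genes. Erg and Fli1 share 81 of the 90 bases, Fli1 and Ets1 share 74, and Erg and Ets1 share 70. The stretch lies at chr16:95361121-95361210 (exon 11, minus strand) for Erg and chr9:32424100-32424189 (exon 9, minus strand) for Fli1. In Ets1 it crosses from exon 7 into exon 8, and all but its first 3 bases lie at chr9:32754213-32754299 (plus strand).
Erg: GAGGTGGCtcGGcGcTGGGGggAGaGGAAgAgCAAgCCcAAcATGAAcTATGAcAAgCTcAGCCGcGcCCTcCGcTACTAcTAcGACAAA
Fli1: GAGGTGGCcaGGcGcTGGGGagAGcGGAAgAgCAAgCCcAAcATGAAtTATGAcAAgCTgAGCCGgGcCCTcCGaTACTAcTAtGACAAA
Ets1: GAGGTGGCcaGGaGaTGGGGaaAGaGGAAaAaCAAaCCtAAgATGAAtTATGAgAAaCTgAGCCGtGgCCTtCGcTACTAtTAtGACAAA

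No run of 50 bases was shared between members of a family. Of all 50-base windows in the members' transcripts, 0 in Sox18, Erg, Ets1, Tal1, Lyl1 and Gata2 occurred in a transcript of another gene on either strand. The share was 0.0615% in Sox7, 0.292% in Fli1 and 0.331% in Mecom. In Sox17 it was 15% of 5037 windows, all through Gm37587, an annotated transcript on the opposite strand that had 0 counts in each library.

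Depth ranged from 18949106 to 26237825 counts per library, and 14270 genes passed the filter on low counts (edgeR's filterByExpr, minimum count 10), among them all 10 members. Levels are CPM, counts scaled to the TMM-adjusted library size, and fold changes, standard errors (SE) and adjusted p-values come from edgeR's quasi-likelihood test of KO against control, with Benjamini-Hochberg adjustment over the 14270 genes and a limit of 0.05. The members together took 0.00522% to 0.00555% of the counts in control and 0.00350% to 0.00406% in KO libraries. Fam20c itself was at 8.86 to 11.9 CPM in control and 6.65 to 7.74 CPM in KO libraries, without overlap (log2 fold change -0.49, SE 0.0929, adjusted p = 0.0137). It thus fell in the direction of the labels but was still at 71.1% of control, so the KO cultures did not lack Fam20c RNA as counted per gene. Adipocyte markers were abundant in each library, with a sum over Adipoq, Fabp4, Plin1 and 5 more genes of 36541 to 37739 CPM in control and 37968 to 40244 CPM in KO cultures. Each KO culture was above each control in this sum, whose mean in KO was 105% of control. Fabp4 held most of the sum, at means of 20805 CPM in control and 22552 CPM in KO (adjusted p = 0.3865). Of the 8 genes 7 had a positive log2 fold change, although 0 passed (3 at an unadjusted p under 0.05) and 0 separated the groups alone. Control 4 and KO 1 lay farthest out on the leading principal component, which held 23.5% of the variance. A bulk library cannot tell apart fewer cells of a type and less RNA per cell, which holds for each difference reported here.

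Of the 10 factors, 4 fell in KO cultures (Sox7, Sox17, Sox18 and Erg) and 0 rose, against 1.86% of all tested genes that fell and 0.308% that rose. Of these 4, Sox17 met the filter on low counts through the control libraries, where it is higher. A minimum mean CPM of 1 removes it, along with Tal1, Lyl1 and Gata2, and leaves 3 lower. All 3 SoxF genes and 1 of the 3 ETS genes were among those that fell, and 0 of the bHLH and 0 of the zinc finger genes passed. At an unadjusted p-value under 0.05, 6 members were lower and 0 were higher, against 7.46% and 4.43% of all tested genes. Tal1, among these 6, met the filter on low counts mainly through the control libraries, where it is higher. Each of the 10 log2 fold changes was negative, while 50.3% of all genes had a negative value. The median log2 fold change of the members was -0.60, beside 0.00 for all genes tested. The KO libraries lay wholly below the control libraries in 4 members and wholly above in 0, against 2.66% and 1.31% of all genes. With Control 4 and KO 1 left out together, Tal1 no longer met the filter on low counts, and 4 members were again lower and 0 higher. Since the set was chosen with earlier results of these data known, these counts and shares describe it and are not a test of it.

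**Figure D1:**
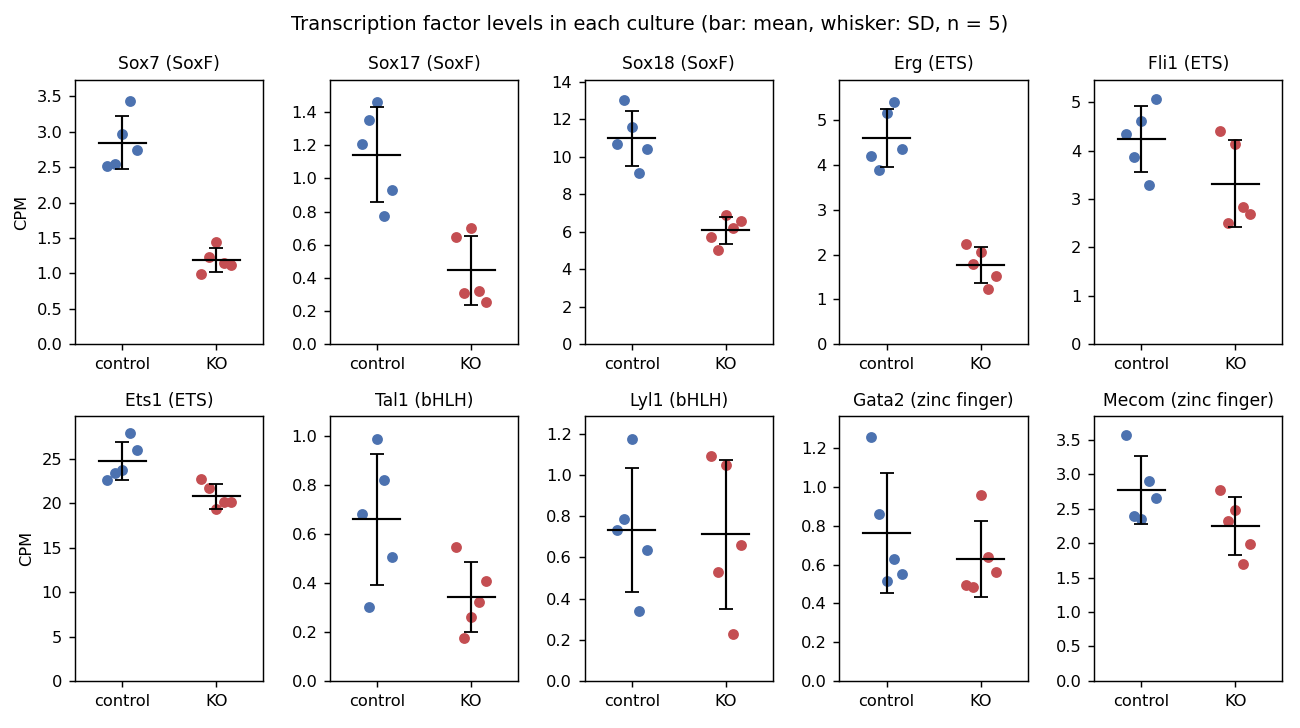
CPM (linear axis from 0) of each transcription factor in the 5 control and 5 KO cultures, 1 point per library, with the mean and SD. The KO points of Sox7, Sox17, Sox18 and Erg lie below every control point, and those of the other 6 genes overlap the control points.

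Sox7 (ENSMUSG00000063060.7, chr14:63943673-63950732, plus strand) encodes a SoxF factor of early endothelial and blood-forming cells. It was at 2.52, 2.55, 2.96, 3.43 and 2.75 CPM in control cultures 1 to 5 and at 0.992, 1.23, 1.44, 1.15 and 1.12 CPM in KO cultures 1 to 5. The highest KO culture was thus far below the lowest control. Mean expression was 2.84 ± 0.375 CPM in control and 1.19 ± 0.166 CPM in KO (SD, n = 5), and it fell to 42.0% of control with a log2 fold change of -1.25 (SE 0.145, adjusted p = 0.000562). The gene ranked 32 among the 14270 by p-value, on 20 to 71 counts per library.

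Sox17 (ENSMUSG00000025902.14, chr1:4490931-4497354, minus strand), known for arterial endothelium and definitive endoderm, was the lowest SoxF gene. Its control cultures had 1.21, 1.35, 1.46, 0.774 and 0.930 CPM. Its KO cultures had 0.645, 0.307, 0.698, 0.321 and 0.254 CPM. The groups did not overlap, but the gap between KO 3 and Control 4 was small and the values rest on 5 to 36 counts per library. The counts were 23, 36, 31, 16 and 22 in control and 13, 7, 16, 7 and 5 in KO cultures. With a minimum count of 10, Sox17 thus met the filter on low counts through the control group, where it is higher. Without this filter it also passed edgeR's test (adjusted p = 0.0172). Mean expression was 1.14 ± 0.286 CPM in control and 0.445 ± 0.209 CPM in KO (SD, n = 5), and the fitted log2 fold change was -1.35 (SE 0.295, adjusted p = 0.0322). The call was lost, with an adjusted p between 0.0508 and 0.105, in 7 of the 10 fits that each left out 1 library (Control 1, 2, 3 or 5, or KO 2, 4 or 5), while the log2 fold change stayed between -1.58 and -1.21.

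Sox18 (ENSMUSG00000046470.6, chr2:181669836-181671640, minus strand) encodes a SoxF factor of vessel and lymphatic development. It was at 10.7, 13.0, 11.6, 9.14 and 10.4 CPM in control cultures and at 5.70, 5.05, 6.90, 6.18 and 6.57 CPM in KO cultures. Control 4 was the lowest control and still lay above each KO culture. Mean expression was 11.0 ± 1.45 CPM in control and 6.08 ± 0.727 CPM in KO (SD, n = 5), and it fell to 55.2% of control with a log2 fold change of -0.86 (SE 0.110, adjusted p = 0.00104). Its decrease was the smallest of the 3 SoxF genes on the log2 scale. The library-wise log2 ratio of Sox7 to Sox18 went from -1.92 ± 0.337 in control to -2.27 ± 0.203 in KO (SD, n = 5), and that of Sox17 to Sox18 from -3.19 ± 0.209 to -3.60 ± 0.537 (SD, n = 5). Both ratios overlapped between groups and neither difference passed (2-sided exact permutation test, p = 0.0635 and p = 0.151, or 0.169 and 0.302 adjusted over the 8 pairs compared within classes).

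Erg (ENSMUSG00000040732.21, chr16:95359169-95586593, minus strand) encodes the ETS factor most restricted to endothelium among the 3. It was at 4.20, 3.90, 5.17, 5.42 and 4.35 CPM in control and at 2.23, 1.80, 2.05, 1.24 and 1.53 CPM in KO cultures. Each KO culture was below each control. Mean expression was 4.61 ± 0.653 CPM in control and 1.77 ± 0.399 CPM in KO (SD, n = 5), and it fell to 38.6% of control with a log2 fold change of -1.37 (SE 0.161, adjusted p = 0.000576). This was the lowest point estimate among the 10 factors in the fit to all libraries. In each of the 10 fits without 1 library Sox7, Sox18 and Erg passed again, and the log2 fold change of Erg stayed between -1.46 and -1.27.

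Fli1 (ENSMUSG00000016087.14, chr9:32422204-32542861, minus strand), close to Erg in its ETS domain and also expressed in blood cells, was at 4.35, 3.86, 4.61, 3.29 and 5.07 CPM in control and at 4.41, 2.50, 4.15, 2.84 and 2.70 CPM in KO cultures. KO 1 and KO 3 lay within the control range and the other 3 KO cultures below it. The log2 fold change of -0.35 (SE 0.178, 95% interval -0.74 to 0.03) did not pass (adjusted p = 0.479).

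Ets1 (ENSMUSG00000032035.17, chr9:32636221-32757820, plus strand), a founding ETS factor expressed in lymphocytes, endothelium and stromal cells, had the most counts of the set. It was at 22.7, 23.4, 23.7, 27.9 and 26 CPM in control and at 22.7, 21.7, 19.3, 20.1 and 20.1 CPM in KO cultures. KO 1 lay just above the lowest control and the other 4 KO cultures were below it. The mean was 24.8 ± 2.17 CPM in control and 20.8 ± 1.38 CPM in KO (SD, n = 5), and the fitted log2 fold change was -0.25 (SE 0.0692, 95% interval -0.40 to -0.10). The adjusted p of 0.100 missed the limit, and with DESeq2's Wald test it passed at 0.0437.

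The ETS members were compared with each other in the same libraries. The log2 ratio of Erg to Fli1 was 0.12 ± 0.353 in control and -0.86 ± 0.261 in KO, and that of Erg to Ets1 was -2.41 ± 0.158 and -3.51 ± 0.294 (SD, n = 5). Neither ratio overlapped between the groups, and both were lower in KO (p = 0.00794 by exact permutation, 2-sided, the smallest value 5 against 5 allows). All 8 pairs within the classes were compared, and these were the pairs that passed when adjusted over the 8 (0.0317 each, exact permutation test). Erg thus fell further than both of its relatives. The ratio of Fli1 to Ets1 differed between groups by -0.12 (exact permutation test, p = 0.540).

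Tal1 (ENSMUSG00000028717.13, chr4:115056426-115071755, plus strand), which blood formation depends on, was near the limit of detection at 4 to 21 counts per library. It was at 0.682, 0.300, 0.988, 0.822 and 0.507 CPM in control and at 0.546, 0.176, 0.262, 0.321 and 0.407 CPM in KO cultures. Each KO culture was below the control median, but Control 2 lay among the KO cultures. The log2 fold change of -0.93 had a wide error (SE 0.366, 95% interval -1.72 to -0.13), and no difference could be called at this depth (adjusted p = 0.311). Lyl1 (ENSMUSG00000034041.6, chr8:84701457-84704715, plus strand) was at 0.338 to 1.18 CPM in control, with a median of 0.734 CPM in Control 1, and at 0.229 to 1.09 CPM in KO cultures. The groups covered nearly the same range, with a log2 fold change of -0.05 (SE 0.381, adjusted p = 0.984) that turned positive in 3 of the 10 fits without 1 library. Lyl1 lies within the bounds of Nfix on the opposite strand, which had 1409 to 2390 counts per library against 5 to 25 for Lyl1. The part of Nfix reads in the Lyl1 counts was not tested.

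Gata2 (ENSMUSG00000015053.15, chr6:88193891-88207032, plus strand) was at 1.26, 0.862, 0.517, 0.629 and 0.550 CPM in control and at 0.496, 0.483, 0.960, 0.641 and 0.560 CPM in KO cultures. Control 1 was the highest culture and the rest of the groups overlapped. The log2 fold change was -0.26 (SE 0.292, adjusted p = 0.832), with a 95% interval from -0.89 to 0.38. Mecom (ENSMUSG00000027684.17, chr3:29951296-30548008, minus strand) was at 3.57, 2.40, 2.35, 2.90 and 2.66 CPM in control and at 2.78, 2.33, 2.49, 1.69 and 1.98 CPM in KO cultures. KO 1 and KO 3 lay within the control range. Its log2 fold change of -0.29 (SE 0.162, 95% interval -0.64 to 0.06) did not pass (adjusted p = 0.536).

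Levels of different genes were compared as CPM per kilobase of exon in GENCODE M21. In control cultures Sox18 was the highest, at 6.78 ± 0.897, followed by Ets1 at 2.92 ± 0.256, Erg at 1.33 ± 0.189, Fli1 at 1.22 ± 0.197 and Sox7 at 0.862 ± 0.114 CPM per kilobase (SD, n = 5). Sox18 and Ets1 were apart from each other and from the rest in each library, while the control ranges of Erg and Fli1 overlapped, as did those of Fli1 and Sox7. Lyl1 came next at 0.408 ± 0.168 CPM per kilobase. Sox17, Mecom, Tal1 and Gata2 followed between 0.141 and 0.240 CPM per kilobase on average, each overlapping its neighbor. Within SoxF, Sox18 made up 85.9% ± 2.19 of the summed per-length level in control and 89.2% ± 1.48 in KO cultures (SD, n = 5). The groups overlapped (2-sided exact permutation test, p = 0.0238, or 0.0714 adjusted over the shares of the 3 genes). The share of Sox7 was 11.1% ± 2.50 and 8.59% ± 1.21, and that of Sox17 was 3.01% ± 0.520 and 2.21% ± 0.959 (SD, n = 5, exact permutation p = 0.0556 and 0.143).

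The order was not the same in KO cultures. Sox18 remained the highest at 3.75 ± 0.449 and Ets1 followed at 2.45 ± 0.162 CPM per kilobase, still without overlap. Fli1, at 0.952 ± 0.255, was above Erg, at 0.511 ± 0.115 CPM per kilobase, and these did not overlap. Sox7 dropped to 0.359 ± 0.0503 CPM per kilobase, within the range of Lyl1 at 0.395 ± 0.202 CPM per kilobase. Sox17 dropped to 0.0933 ± 0.0438 CPM per kilobase, where it overlapped Tal1 and Gata2.

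**Figure D2:**
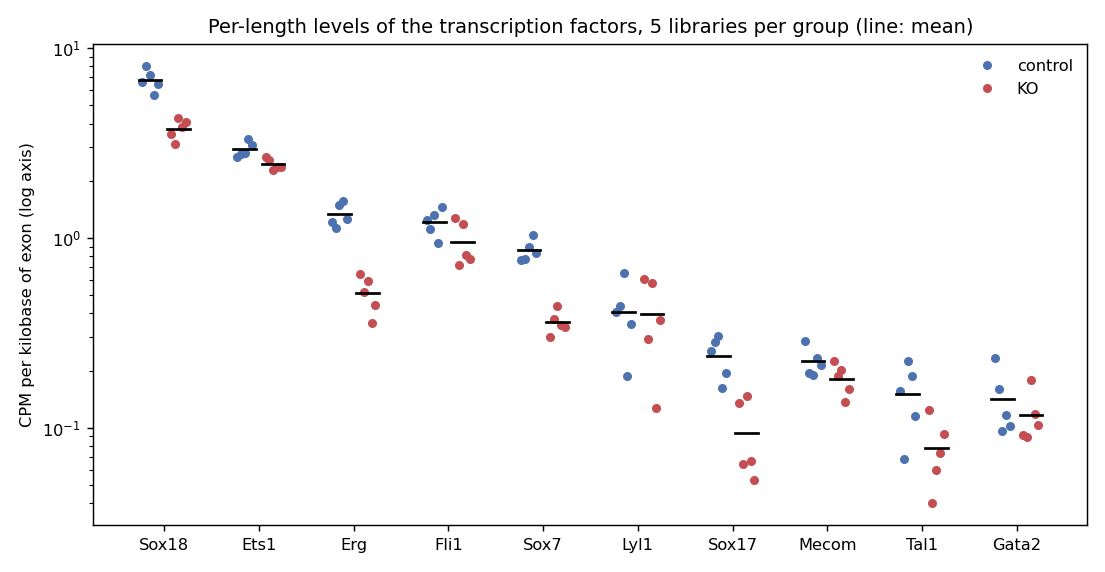
CPM per kilobase of exon (log axis) of each factor, ordered by the control mean, with 1 point per library in control and KO cultures and a line at each mean. Sox18 and Ets1 are the highest genes in both groups, and Erg is close to Fli1 in control but below it in KO cultures.

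To compare the factors with the endothelial genes around them, counts were also scaled to the summed counts of 22 endothelial markers that encode surface, junction and signaling proteins rather than transcription factors, such as Pecam1, Cdh5, Tie1 and Emcn. Some of these markers, among them Cdh5, Robo4 and Kdr, are also reported targets of the factors, so the scale is not independent of them. This sum was 223.3 to 268.5 CPM in control and 94.0 to 135.5 CPM in KO cultures, a fall to 44.8% of control, and 19 of the 22 markers were lower. Tek, Nos3 and Vwf did not pass, with log2 fold changes of -0.19, -0.29 and -0.39 (adjusted p = 0.835, 0.409 and 0.434). On this scale 97.8% of all 14270 genes rose (adjusted p under 0.05) and 3 genes (0.0210%) fell, with the same shares at an unadjusted p under 0.05, and the median log2 fold change of all genes was 1.17. Of the 10 factors, 6 rose and 0 fell.

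Sox7, Sox17, Erg and Tal1 were the factors that did not rise on the marker scale. The relative log2 fold change was -0.08 (95% interval -0.50 to 0.34) for Sox7, -0.21 (-0.82 to 0.40) for Sox17 and -0.22 (-0.58 to 0.14) for Erg, with adjusted p-values of 0.700, 0.489 and 0.225. For Tal1 it was 0.22, with a wide interval from -0.49 to 0.94. Per 1000 marker counts, Erg had 18.3 ± 1.64 in control and 15.6 ± 1.82 in KO cultures, and Sox7 had 11.3 ± 0.893 and 10.7 ± 2.05 (SD, n = 5). These intervals leave room for changes of up to 0.82 on the log2 scale in Sox17, so they do not show equal movement with the markers.

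Sox18 rose slightly against the markers, by 0.31 (95% interval 0.01 to 0.61, adjusted p = 0.0431), from 44.1 ± 8.14 to 54.9 ± 10.3 per 1000 marker counts (SD, n = 5). This call was lost under 9 of the 14 other settings, among them the geometric mean of the markers (0.22, adjusted p = 0.130) and the sum without its 3 largest markers (0.22, adjusted p = 0.122). It was also lost without Control 3, 4 or 5 or KO 3, 4 or 5, with values of 0.23 to 0.30. Fli1, Ets1, Lyl1, Gata2 and Mecom rose by 0.80, 0.92, 1.08, 0.88 and 0.85 on the relative log2 scale, and each passed in every other setting tried. Ets1 went from 98.6 ± 5.82 to 186.6 ± 20.2 per 1000 marker counts (SD, n = 5), and its KO cultures lay above each control culture. These 5 genes were thus in the same direction as 97.8% of all genes.

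**Figure D3:**
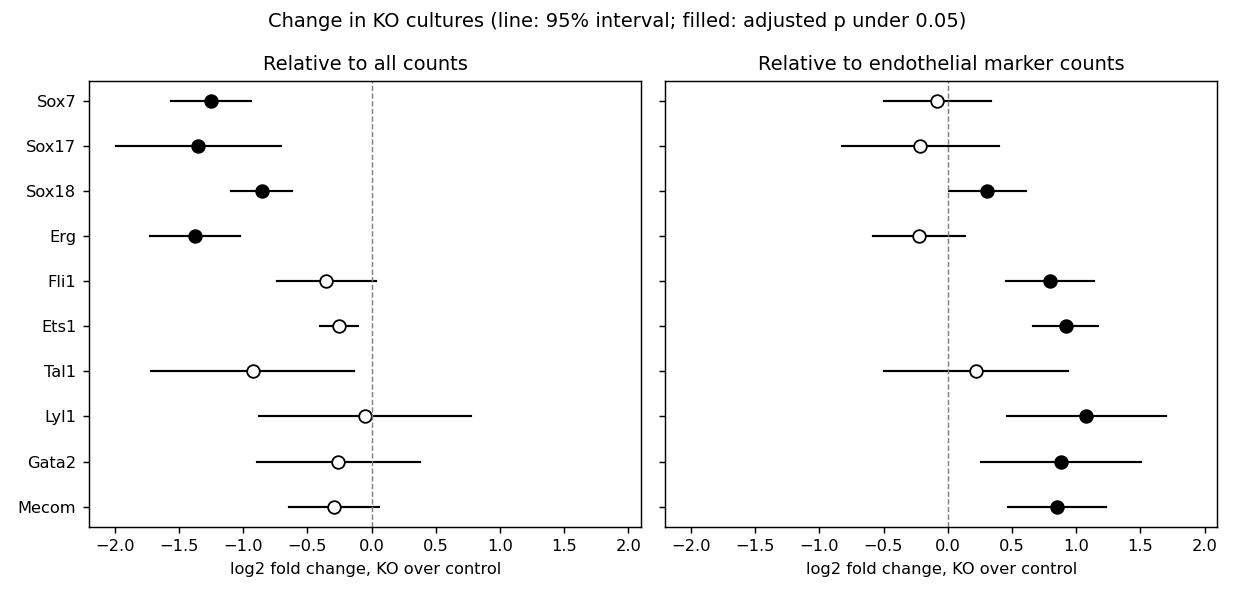
Log2 fold changes of KO over control with 95% intervals for the 10 factors, on the scale of all counts (left) and on the scale of 22 summed endothelial markers (right), with filled points for an adjusted p under 0.05. Sox7, Sox17, Sox18 and Erg are the filled points on the left, all below 0, and on the right Sox7, Sox17, Erg and Tal1 are the genes whose intervals span 0.

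Relatives of these factors were read from lists of their families. Of 16 other Sox genes 9 were tested and 0 passed (0 at an unadjusted p under 0.05), with a median log2 fold change of -0.07. Of 23 other ETS genes 14 were tested, 5 had an unadjusted p under 0.05 in either direction, and 1 fell. This was Elk3, an ETS repressor of the ternary complex family expressed in vessels. It went from 14.6 ± 0.900 to 10.4 ± 0.556 CPM (SD, n = 5), or by -0.49 on the log2 scale (adjusted p = 0.00134), with no overlap between groups. Ets2, the closest relative of Ets1, was at 42.9 ± 5.92 and 40.3 ± 5.10 CPM (SD, n = 5, adjusted p = 0.830). The median over the tested ETS relatives was 0.00.

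Of 12 partners of Tal1 and Lyl1, 11 were tested and 1 fell (1 at an unadjusted p under 0.05). This was Tcf4, an E protein, which went from 51.6 ± 2.1 to 43.5 ± 2.7 CPM (SD, n = 5), or by -0.25 on the log2 scale (adjusted p = 0.0209), also without overlap. The bridging proteins of the complex did not pass, with 13.7 ± 1.69 and 12.1 ± 2.57 CPM for Lmo2 (adjusted p = 0.660) and 56.2 ± 2.58 and 52.8 ± 4.28 CPM for Ldb1 (SD, n = 5, adjusted p = 0.625). Of 10 GATA and PRDM relatives 5 were tested and 0 passed (1 at an unadjusted p under 0.05), and Gata3, known with Gata2 from preadipocytes, had 0 to 5 counts per library.

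Of 21 other endothelial transcription factors 18 were tested, 6 had an unadjusted p under 0.05 in either direction, and 1 fell. This was Bcl6b, a zinc finger repressor enriched in endothelium. It went from 5.15 ± 0.933 to 1.96 ± 0.381 CPM (SD, n = 5), or by -1.40 on the log2 scale (adjusted p = 0.000668). The median of this list was -0.03, and it includes factors with broad expression such as Epas1, Klf4 and Foxo1.

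Genes reported as direct targets of the SoxF, ETS and GATA factors were read next. All 16 were tested, 11 fell and 0 rose (13 at an unadjusted p under 0.05), with a median log2 fold change of -0.75. The 5 with the smallest p-values were Cdh5 (VE-cadherin), Robo4, Egfl7, Angpt2 and Kdr (VEGF receptor). Cdh5 went from 53.1 ± 5.11 to 22.1 ± 3.67 CPM and Robo4 from 12.2 ± 1.32 to 3.87 ± 0.846 CPM (SD, n = 5), log2 fold changes of -1.27 and -1.65. Egfl7, Angpt2 and Kdr had log2 fold changes of -1.24, -1.15 and -0.85. The list shares 9 of its 16 genes with the endothelial markers, so it is not a separate readout from them. Tek (adjusted p = 0.835), Edn1 (0.791), Vwf (0.434), Nos3 (0.409) and Flt1 (0.365) did not pass.

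**Figure D4:**
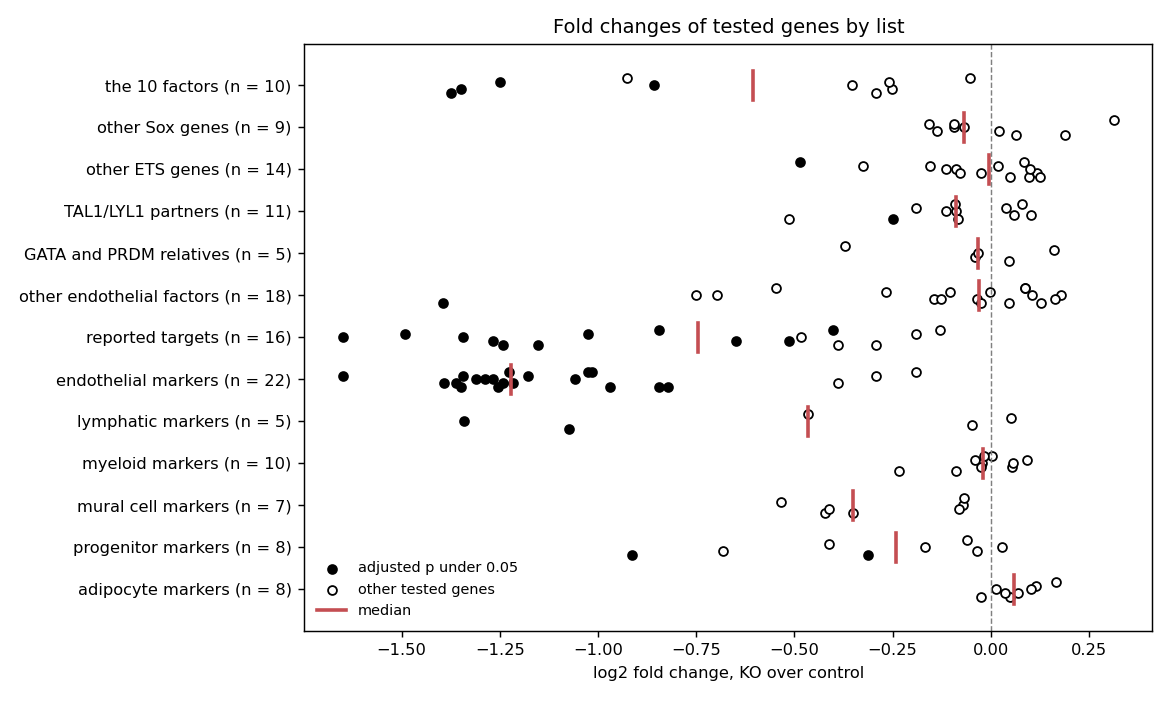
Log2 fold change of KO over control for each tested gene, by list, with filled points for an adjusted p under 0.05 and a red line at each list's median. Filled points sit mostly in the rows of the 10 factors, the reported targets and the endothelial markers, while the other Sox, ETS and GATA/PRDM relatives lie mostly near 0, with Elk3 as the 1 filled point among them.

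Several of the factors are also made by cells outside the blood vessel wall, and markers of those cells were read in the same libraries. Of 10 myeloid markers 0 passed (0 at an unadjusted p under 0.05), with a summed level of 1200 to 1904 CPM in control and 1076 to 1829 CPM in KO cultures. All 8 lymphocyte markers were under 10 counts in each library, and Cd3g and Ms4a1 were at 0. Of 8 megakaryocyte and erythroid markers 2 were tested and 0 passed (1 at an unadjusted p under 0.05). Gp9, Gp1bb and Hbb-bs were at 0, and the sum of the list was 11.3 to 17.4 CPM in control and 11.3 to 15.3 CPM in KO cultures. Nearly all of this sum was from the tested genes, Pf4 (mean 6.86 CPM in control and 7.61 in KO) and Itga2b (6.34 and 5.08). Of 7 mast cell markers Kit was the only one tested and it fell, from 8.09 ± 1.94 to 3.80 ± 1.18 CPM (SD, n = 5, adjusted p = 0.0126), while Cpa3, Mcpt4, Tpsb2, Fcer1a, Ms4a2 and Hdc had at most 11 counts in any library. The sum of this list was 6.15 to 11.6 CPM in control and 2.84 to 6.10 CPM in KO cultures. Its means of 8.62 and 3.92 CPM are nearly all Kit. The sum thus repeats Kit and is not a separate readout of mast cells.

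Of 6 lymphatic markers 5 were tested and Flt4 and Mmrn1 fell, with log2 fold changes of -1.07 and -1.34, while Lyve1 and Pdpn, which other cells also express, had -0.05 and 0.05 (adjusted p = 0.980 and 0.956). Reln, also tested, had -0.47 (adjusted p = 0.381). The summed lymphatic markers were at 67.5 to 83.2 CPM in control and 57.6 to 80.0 CPM in KO cultures. Most of this sum was Lyve1 (mean 30.0 CPM in control and 28.9 in KO) and Pdpn (32.8 and 33.9). Of 8 mural cell markers 7 were tested and 0 passed (4 at an unadjusted p under 0.05), with sums of 162.4 to 214.0 and 131.0 to 177.2 CPM. All 7 log2 fold changes were negative, beside 50.3% of all genes, with a median of -0.35. In 2 of the 7 each KO culture lay below each control, against 2.66% of all genes. Most of the sum was Pdgfrb (mean 91.5 CPM in control and 86.6 in KO) and Cspg4 (36.8 and 35.1). Of 8 progenitor markers Pdgfra and Cd34 fell, with log2 fold changes of -0.31 and -0.91, and the list summed to 1465 to 1792 and 1453 to 1623 CPM. Cd34 is also found on endothelium. The part that any of these cell types has in the lower factors was not tested.

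The 5 genes whose log2 CPM over the 10 libraries was most like that of the 10 factors, by mean Pearson correlation among 12964 genes, were Rbp7, Hspa12b, Gpihbp1, Cldn5 and Tmem252. Their mean correlation was 0.73, 0.72, 0.72, 0.71 and 0.71, and after the group means were removed it was 0.44, 0.45, 0.45, 0.44 and 0.41. These values are descriptions over 10 libraries that share the difference between groups. Rbp7 went from 16.9 to 8.76 and Gpihbp1, the capillary anchor of lipoprotein lipase, from 11.7 to 4.85 CPM on average.

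Promoter sequence from RefSeq (GRCm38.p6, 250 bases before a start site) was at hand for 5 members, Erg, Tal1, Lyl1, Gata2 and Mecom. Sox7, Sox17, Sox18, Fli1 and Ets1 were not used here. The first listed window of Erg, which fell, and that of Lyl1, which did not pass, are shown. Capitals mark matches on either strand to short letter strings. ETS factors were searched as CCGGAA and as the string CAGGAA. SOX factors were searched as ACAATG and as the string ACAAAG. The string for zinc finger factors of the GATA family was AGATAA, and bHLH factors were searched with the E-box string CAGNTG. Matches in these 2 windows do not overlap. The Erg window is chr16:95586594-95586843 (minus strand) and the Lyl1 window is chr8:84701207-84701456 (plus strand).
Erg: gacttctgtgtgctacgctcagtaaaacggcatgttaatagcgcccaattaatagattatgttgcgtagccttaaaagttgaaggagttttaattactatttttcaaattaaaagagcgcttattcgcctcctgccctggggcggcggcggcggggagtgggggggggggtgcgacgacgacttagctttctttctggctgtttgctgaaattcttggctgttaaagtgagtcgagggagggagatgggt
Lyl1: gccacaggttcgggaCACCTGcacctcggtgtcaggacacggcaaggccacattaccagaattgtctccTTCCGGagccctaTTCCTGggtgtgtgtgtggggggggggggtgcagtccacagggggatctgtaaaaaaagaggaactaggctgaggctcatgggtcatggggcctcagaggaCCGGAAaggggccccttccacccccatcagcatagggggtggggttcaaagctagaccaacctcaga

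This Erg window held none of these letters. RefSeq lists 2 further start-site windows for Erg, of which the window at chr16:95530366-95530615 held none and that at chr16:95459349-95459598 held 1 match each to the ETS string CAGGAA and the SOX string ACAATG, and 1 each to the GATA string and the E-box string. The Lyl1 window held CCGGAA 2 times, CAGGAA 1 time and CAGNTG 1 time. Among 27025 windows of the same length, 1 per gene, the ETS letters CCGGAA were in 12.2% and CAGGAA in 25.4%, the SOX letters ACAATG in 11% and ACAAAG in 16.5%, the GATA letters in 10.3% and the E-box letters in 44.5%. The observed to expected ratio of CpG was 1.03 in the Erg window and 0.226 in the Lyl1 window, beside a median of 0.378 over all windows. In the first windows of the other members AGATAA occurred 1 time in Tal1, CAGNTG occurred 1 time in Mecom, and Gata2 held none of the letters. The second windows of Tal1, Gata2 and Mecom held none.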

How the data were processed

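RNA was sequenced from 5 control and 5 KO cultures. SMARTer and Nextera XT kits served for the libraries. With STAR the authors mapped the read pairs to GRCm38 (mm10 in the submitters' processing notes), and they counted fragments per gene with featureCounts, and the deposited counts are not normalized. The strand setting is not given in the sources used here. Positions and exon lengths are from GENCODE M21, which holds 52125 of the 56748 gene identifiers and all 10 members in other versions, so per-length levels are approximate.

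Here edgeR 4.0.16 in R 4.3.3 filtered genes (filterByExpr, minimum count 10), applied TMM and ran the quasi-likelihood test with Benjamini-Hochberg adjustment. SE is the log2 fold change over the square root of F. Exact permutation tests were 2-sided over 252 assignments. The marker scale replaced library sizes by summed counts of 22 endothelial markers. Scripts were tested on simulated data. Alternatives were DESeq2 1.42.0, limma 3.58.1 (voom), other size factors and filters, a replicate block and left-out libraries.

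All members were named, with genes of the relative, partner and target lists that passed (up to 5 per list by p), Fam20c, Lmo2, Tcf4, Ldb1, Gata3, Ets2, Elk3 and the 5 most alike genes. Other genes (Gm37587, Nfix, marker examples, targets that did not pass) were chosen after their values were seen. Members and lists were chosen with earlier results of these data known. The comparison of pairs and the fit without both outlying libraries were added after seeing the data. A coding stretch and some marker genes are not reported here.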

Additional observations from a re-analysis of the deposited data

Results flagged for a closer look

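Dixon's ratio (gap of an extreme library to its neighbor over the range, critical value 0.71 for 5) was taken in 60 groups of libraries, of which chance passes about 3. In 4 groups an extreme library passed, and 0 of these concerned a member. Control 4 had 87.2 CPM for the summed other Sox genes against 70.8 to 73.6 in the other controls. KO 1 had 168.1 CPM for the summed reported targets against 124.5 to 135.8 in the other KO libraries. It also had 6.10 CPM for the summed mast cell markers, nearly all Kit, against 2.84 to 3.61. KO 3 had 131.0 CPM for the summed mural cell markers against 170.3 to 177.2.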

How the results depend on the processing

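The number of lower members was 3 to 5 and that of higher members 0 under every alternative. It was 5 with DESeq2 through Ets1 and 3 to 4 with each library left out. It was 3 with a minimum mean CPM of 1, which removes Sox17, Tal1, Lyl1 and Gata2. On the marker scale 5 to 6 members rose and 0 fell. The log2 fold change of Lyl1 was -0.24 to 0.17 with each library left out, above 0 without Control 3, KO 2 or KO 4. That of Sox7 on the marker scale was -0.146 to 0.0369, above 0 without KO 1, and 0.0863 without both Control 4 and KO 1. The cause was not tested. Over all genes, 265 were lower and 44 higher, against 125 higher with DESeq2, 145 higher without both Control 4 and KO 1, 193 lower and 21 higher with the replicate block, and 164 to 323 lower and 19 to 119 higher with each library left out.

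The groups share replicate numbers 1 to 5, but deviations of same-numbered libraries correlated from -0.25 to 0.26 and 1 of 5 control libraries was closest to its own number. No pairing by number was thus seen, although so few libraries could miss a weak one. With the replicate block 4 members were lower and 0 higher, and Sox18 on the marker scale was 0.31 (adjusted p = 0.0594). Genes of low CPM such as Tal1, Lyl1, Gata2 and Sox17 rest on few counts, and counting error limits what can be seen there.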
